A study of Mus musculus with 4 samples.

Results

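The genes described here encode the enzymes that chemically modify drugs, dietary toxins, steroids and bile acids: cytochrome P450s (Cyp), glutathione S-transferases of the alpha, mu, pi, theta and omega classes (Gst), UDP-glucuronosyltransferases (Ugt) and sulfotransferases (Sult). They were chosen by gene symbol alone, which gave 161 of the 21900 protein-coding genes of the RefSeq table for GRCm38.p6 (mm10): 99 Cyp, 20 Gst, 21 Ugt and 21 Sult genes. RNA crosslinked to the RNA-binding protein MSI2 was mapped by CLIP-seq, in which ultraviolet light joins protein to RNA, an MSI2 antibody pulls the complexes down and the bound RNA fragments are sequenced. The 2 TRE-Msi2 libraries came from total intestinal epithelium of mice with a doxycycline-inducible Msi2 transgene after 24 hours of doxycycline. The 2 WT libraries came from intestinal crypts of wild-type mice, with no doxycycline recorded, and all libraries share the C57BL6 background. Genotype, tissue fraction and doxycycline therefore cannot be told apart. The labels used here name no driver of the transactivator that the transgene needs, and do not say how many mice gave each library.

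The small intestine is the first tissue to meet swallowed compounds, and its enterocytes carry a large share of the body's defence against them outside the liver. P450s oxidise a substrate in what is called phase I, the transferases then attach glutathione, glucuronic acid or sulfate in phase II, and efflux pumps expel the product. Many of these genes lie in clusters of close copies made by duplication, so their transcripts resemble each other. Musashi proteins bind RNA at short sites with the core letters UAG, often near the ends of messenger RNAs, and act on translation and stability.

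The deposited data are 1 peak list per genotype, each pooling 2 libraries, with 16939 TRE-Msi2 and 12061 WT peaks. A peak covers 1 or more 200-nt bins. Nearly all single bins carry a whole-number score that behaves as a read count. Many joined peaks carry averages over more entries than their width holds, and 18.7% of joined TRE-Msi2 peaks and 19.1% of joined WT peaks score below the lowest single bin, so scores of joined and single-bin peaks are not on one scale. Single bins with a broken score, 329 in the TRE-Msi2 list and 67 in the WT list, were labelled plus in 99.7% and 100% of cases, and over minus-strand genes 0 of 58 and 0 of 19 had the gene's strand. Their strand cannot be read, and that of a joined peak may stand for only part of its entries. The lowest whole single-bin score was 20 in the TRE-Msi2 list (exact Poisson 95% interval 12.2 to 30.9, counting error only) and 15 in the WT list (8.4 to 24.7), and the median scores of all peaks were 24.7 and 19. No value has a replicate error, no difference between genotypes could be tested, and scores were not compared between the lists because library depth is unknown. No input or RNA abundance was used here, so binding and transcript level cannot be separated. Intestinal identity was checked on marker genes: 12 of 12 enterocyte and 7 of 7 Paneth cell markers held a peak in each list, and 0 of 7 stromal markers did in either. Goblet cell markers gave 5 of 7 in each list. Enteroendocrine markers gave 6 (TRE-Msi2) and 4 (WT) of 8, and tuft cell markers 0 and 1 of 5. The WT list thus held all enterocyte markers although its libraries came from crypts, and the purity of the fractions was not tested. Crypt stem cell markers gave 6 of 7 in the TRE-Msi2 list and 4 of 7 in the WT list, and immune markers 3 of 7 in each; the part of either in the results below was not tested. Of 8 hepatocyte markers, 4 held a TRE-Msi2 peak and 3 a WT peak. Alb, Ttr, Fgb and Hpx, which define hepatocytes, held 0, the peaks of Apoh and F2 lay on the opposite strand, and the others were Serpina1a and Cps1, which gut epithelium also expresses.

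Sequence under a peak could be read only where a peak reached the RefSeq window around a gene start (250 bases before to 50 after it), which happened in 3 genes. These stretches are shown because they lie under MSI2 peaks and can be read here. For Cyp4f14 only 30-base parts are printed, from 200 and 300 bases of 1 window, and each part holds 2 TAG. These parts do not show how dense TAG is under the whole peaks. All stretches run 5′ to 3′ on the gene's own minus strand of GRCm38.p6, with each TAG (UAG in RNA) in capitals.

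Cyp3a11, chr5:145879805-145879824: agttgTAGggagaacacaga

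Cyp4f14, chr17:32917166-32917195: cagggagccagctggccttggggaTAGTAG

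Cyp4f14, chr17:32917266-32917295: gctgggggtggttatatttTAGggaccTAG

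Sult1d1, chr5:87568957-87568975: ggtaaacaggggagcggcc

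The Cyp3a11 stretch is the part of a peak shared by both lists that falls in the window, and it held 1 TAG on this strand and 0 on the other. The last 20 bases of 14.9% of all 32851 windows held at least 1 TAG. The first Cyp4f14 line gives 30 bases of a 200-nt WT bin that lies whole in the window of a downstream start of the gene. That bin held 5 TAG on the gene's strand and 1 on the other, where the same 200 bases of all windows had a median of 2 and 6.81% had 5 or more. In every window most of these 200 bases lie before the gene start, so the share is one of DNA that may not be transcribed, not of RNA. Both printed Cyp4f14 stretches also lie before the downstream start, but after other starts of the gene. The second line gives 30 bases of the wider TRE-Msi2 peak over the same start. Its 300 bases in that window held 8 TAG on the gene's strand and 2 on the other. These 300 bases include the WT bin, and no share of all windows was computed for this length. The Sult1d1 stretch, under a peak of the TRE-Msi2 list, held 0 on either strand. A match describes letters, not a bound site.

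Of the 161 genes, 47 (29.2%, exact Clopper-Pearson 95% interval 22.3% to 36.9%) held a TRE-Msi2 peak and 40 (24.8%, 18.4% to 32.3%) held a WT peak. Over all protein-coding genes the shares were 24.9% and 20.3%, inside both intervals. All 40 genes with a WT peak also had a TRE-Msi2 peak, as did 4186 of the 4449 protein-coding genes with a WT peak. Peaks in both lists were thus held by 24.8% of the 161 genes (18.4% to 32.3%), against 19.1% of all protein-coding genes. A TRE-Msi2 peak alone was found in 7 genes (4.35%), against 5.76% of all genes, and a WT peak alone in 0 (upper limit 2.27%), against 1.2%. The other 114 genes held no peak in either list. Where the strand of a gene could be taken from the promoter table, 40 of 131 (30.5%, 22.8% to 39.2%) held a TRE-Msi2 peak and 35 (26.7%, 19.4% to 35.2%) a WT peak on that strand. The shares of all such genes, 20.5% and 16.5%, lay below both intervals, but 8 of these genes are Ugt1a genes that share their peaks. Without them the shares were 26.0% (18.5% to 34.7%) and 22.0% (15.0% to 30.3%), and both intervals took in the share of all such genes. Members with a peak spanned a median of 24.9 kb and those without 18.3 kb. Longer spans were not particular to members, since all protein-coding genes with a peak spanned a median of 30.1 kb and all protein-coding genes 17.1 kb.

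Of the 4 families, only Ugt stood apart in how many members held a peak. Ugt genes came highest with 14 of 21 in the TRE-Msi2 list (66.7%, 43.0% to 85.4%) and 12 of 21 in the WT list (57.1%, 34.0% to 78.2%), but 9 of these are the Ugt1a genes, which share their last exons and hence their peaks. With Ugt1a left out, 38 of 152 members (25.0%) held a TRE-Msi2 peak and 31 (20.4%) a WT peak. Within Ugt, this leaves 1 of 3 Ugt2a, 3 of 7 Ugt2b and 1 of 2 Ugt3a genes with a TRE-Msi2 peak. In the WT list these were 1, 2 and 0. The wide interval of each of these shares took in the share of all protein-coding genes. Gst genes gave 7 and 6 of 20, Cyp genes 22 and 19 of 99, and Sult genes 4 and 3 of 21. Apart from Ugt, the interval of each family's share took in the share of all protein-coding genes in both lists.

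**Figure D1:**
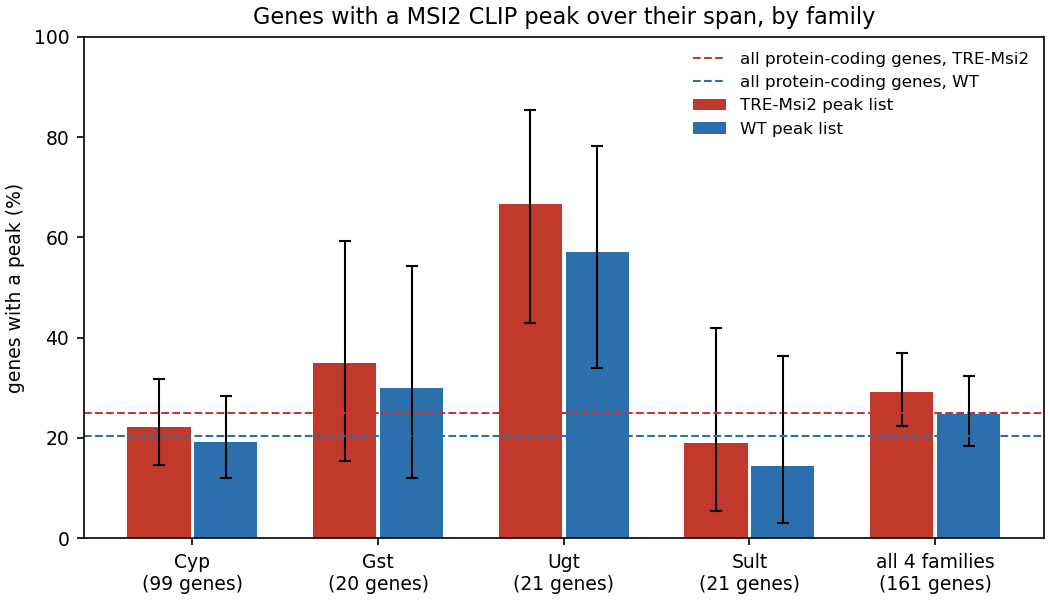
Share of genes (%) with a peak over their span in the TRE-Msi2 list (red) and the WT list (blue), by family and for all 161 genes. Error bars are exact 95% binomial intervals, which cover counting error only; dashed lines mark all protein-coding genes (24.9% and 20.3%). Only the Ugt bars, which hold the 9 overlapping Ugt1a genes, stand wholly above the lines.

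The 161 genes carried 96 different TRE-Msi2 peaks with a median score of 26.3 and 57 WT peaks with a median of 22, beside 25 and 19 for all peaks over protein-coding genes. The highest were 53 and 56.7, where the list maxima were 124 and 143.

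The genes fall into 60 subfamilies and classes, 37 of them with a single gene. At least 1 gene with a peak was found in 24 of these, and 36, with 46 genes, had none. Among P450s with none were Cyp1a and Cyp1b, the classical targets of the dioxin receptor, Cyp2a and Cyp2f2, and the steroid-making Cyp11a1, Cyp11b1, Cyp11b2, Cyp17a1 and Cyp21a1. Also without a peak were Cyp7a1, Cyp7b1, Cyp8b1, Cyp27a1 and Cyp39a1 of bile acid synthesis, Cyp24a1 and Cyp27b1 of vitamin D metabolism, Cyp26a1, Cyp26b1 and Cyp26c1, which degrade retinoic acid, and the brain cholesterol hydroxylase Cyp46a1. All 4 theta-class Gst genes held none, nor did 7 of 11 Sult subfamilies (Sult1a, Sult1c, Sult1e, Sult2b, Sult3a, Sult4a and Sult5a). Absence from a list says that no bin passed the authors' threshold, not that the transcript is missing or unbound. These subfamilies and classes are small, and the exact intervals of their shares are wide. The upper limit was 60.2% in both lists for Cyp2a and for theta-class Gst, 84.2% for Cyp1a and 97.5% for a subfamily of 1 gene. All took in the shares of all protein-coding genes, 24.9% (TRE-Msi2) and 20.3% (WT), so no empty subfamily or class stood apart. Whether the groups named by function did was not tested.

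The phase I P450s, 99 of the 161 genes, held 55 of the 96 TRE-Msi2 peaks and 31 of the 57 WT peaks. They were led by Cyp3a, the subfamily that in human includes the main drug-oxidising P450 of gut and liver. Of its 9 genes 5 held peaks in both lists: Cyp3a11, Cyp3a13, Cyp3a25, Cyp3a41a and Cyp3a41b. Cyp3a13, on chromosome 5 from 137892933 to 137925610, held 14 TRE-Msi2 peaks, the most of any member, and 4 WT peaks. Its highest joined peak, at 137893573 to 137894372, scored 49.8 in the TRE-Msi2 list and 28.2 in the WT list. The 14 TRE-Msi2 peaks were spread from 20.6% to 99.6% of the span in the direction of transcription, whereas the 4 WT peaks all lay within places that the TRE-Msi2 list also held. Its highest single bin in the TRE-Msi2 list, at 137907373 to 137907572 with a score of 47 (34.5 to 62.5), had no WT counterpart.

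Cyp3a11, an abundant liver and gut P450 on the same chromosome, held 7 TRE-Msi2 and 4 WT peaks. Its end, 145854425 to 145855224, scored 46.5 in the TRE-Msi2 list. In the WT list 145854625 to 145855224 scored 56.7, the highest WT score of any joined peak over members. The bin at its start, whose first bases in the direction of transcription are printed above, scored 40 (28.6 to 54.5) in the TRE-Msi2 list and 22 (13.8 to 33.3) in the WT list. Cyp3a25 held 3 TRE-Msi2 peaks with a top score of 35 and 2 WT peaks with 25.7. Cyp3a41a and Cyp3a41b, near-identical copies between which reads may be split, held 1 peak each at their ends, with scores of 31 and 19.7 in the TRE-Msi2 list and 25 and 13.7 in the WT list. The neighbours Cyp3a16, Cyp3a44, Cyp3a57 and Cyp3a59 held none.

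Cyp4 enzymes hydroxylate fatty acids and eicosanoids at the end of the chain. Peaks were found in 3 (TRE-Msi2) and 2 (WT) of 9 Cyp4f genes, in 1 of 8 Cyp4a genes in both lists, and in Cyp4b1 and Cyp4v3, but not in Cyp4x1. Cyp4v3, the mouse counterpart of the human fatty acid hydroxylase CYP4V2, held 6 TRE-Msi2 and 3 WT peaks. A single bin at 45317647 to 45317846 of chromosome 8 scored 53 (39.7 to 69.3), the highest TRE-Msi2 score of any single bin over members. In the WT list this bin scored 32 (21.9 to 45.2). The peak at its end scored 51.2 over 1400 nt in the TRE-Msi2 list and 38.3 over 1200 nt in the WT list. All of its peaks also touched the noncoding gene Gm30504, which is annotated on the other strand, and all were labelled with the strand of Cyp4v3.

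Cyp4f14, a leukotriene hydroxylase in mouse, held 4 TRE-Msi2 and 3 WT peaks. The top scores were 32 at its end in the TRE-Msi2 list and 27 (17.8 to 39.3) at its start in the WT list, in the bin that holds the first of the printed Cyp4f14 stretches. The TRE-Msi2 peak there was 600 nt wide and scored 23.2. Within the WT list the start bin did not differ beyond counting error from the bin at 32903656 to 32903855, near the end, which scored 26 (17.0 to 38.1). Of the other Cyp4 genes, Cyp4a31 scored 41 and 19, Cyp4f40 30 and 19, and Cyp4b1 27.2 and 24.3 (TRE-Msi2, then WT). The strand of Cyp4a31 is not known here. Cyp4f13 had a TRE-Msi2 peak of 20 alone.

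In family 2, the largest P450 family, 9 of 48 genes (18.8%, 8.95% to 32.6%) held a TRE-Msi2 peak and 7 (14.6%, 6.07% to 27.8%) a WT peak, and the shares of all protein-coding genes lay inside both intervals. Cyp2c65, an epoxygenase of the mouse gut, held 1 peak at its end in each list, with scores of 49.3 (TRE-Msi2) and 36 (WT). Its 14 subfamily relatives included 3 with any peak: Cyp2c66 (14) and Cyp2c68 (21) in the TRE-Msi2 list alone, and Cyp2c39. The peaks over Cyp2c39 were labelled antisense to it in both lists, up to 26.7 (TRE-Msi2) and 29 (WT), and of these only the WT bin of 29 is a single bin with a whole score. Cyp2j6, an epoxygenase of arachidonic acid, scored 42 and 30 at the same 400 nt. Cyp2j13, by contrast, held opposite-strand peaks alone, with top scores of 20 and 22.

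Single end peaks shared by both lists were found in the alcohol-oxidising Cyp2e1 (28.5 TRE-Msi2, 18.5 WT, both broken scores of unreadable strand), in Cyp2d26 (26 and 15, with a further TRE-Msi2 peak of 25) and in the drug-inducible Cyp2b10 (19.3 and 21). In the chromosome 7 cluster that holds Cyp2b10, none of the other 12 members of the group had a peak. Among P450s with endogenous substrates, Cyp51, the lanosterol demethylase of cholesterol synthesis, scored 24 (15.4 to 35.7) in the TRE-Msi2 list and 34 (23.5 to 47.5) in the WT list. Cyp19a1, the aromatase that makes oestrogen, scored 34 and 23 in a bin 257 nt before its end.

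**Figure D2:**
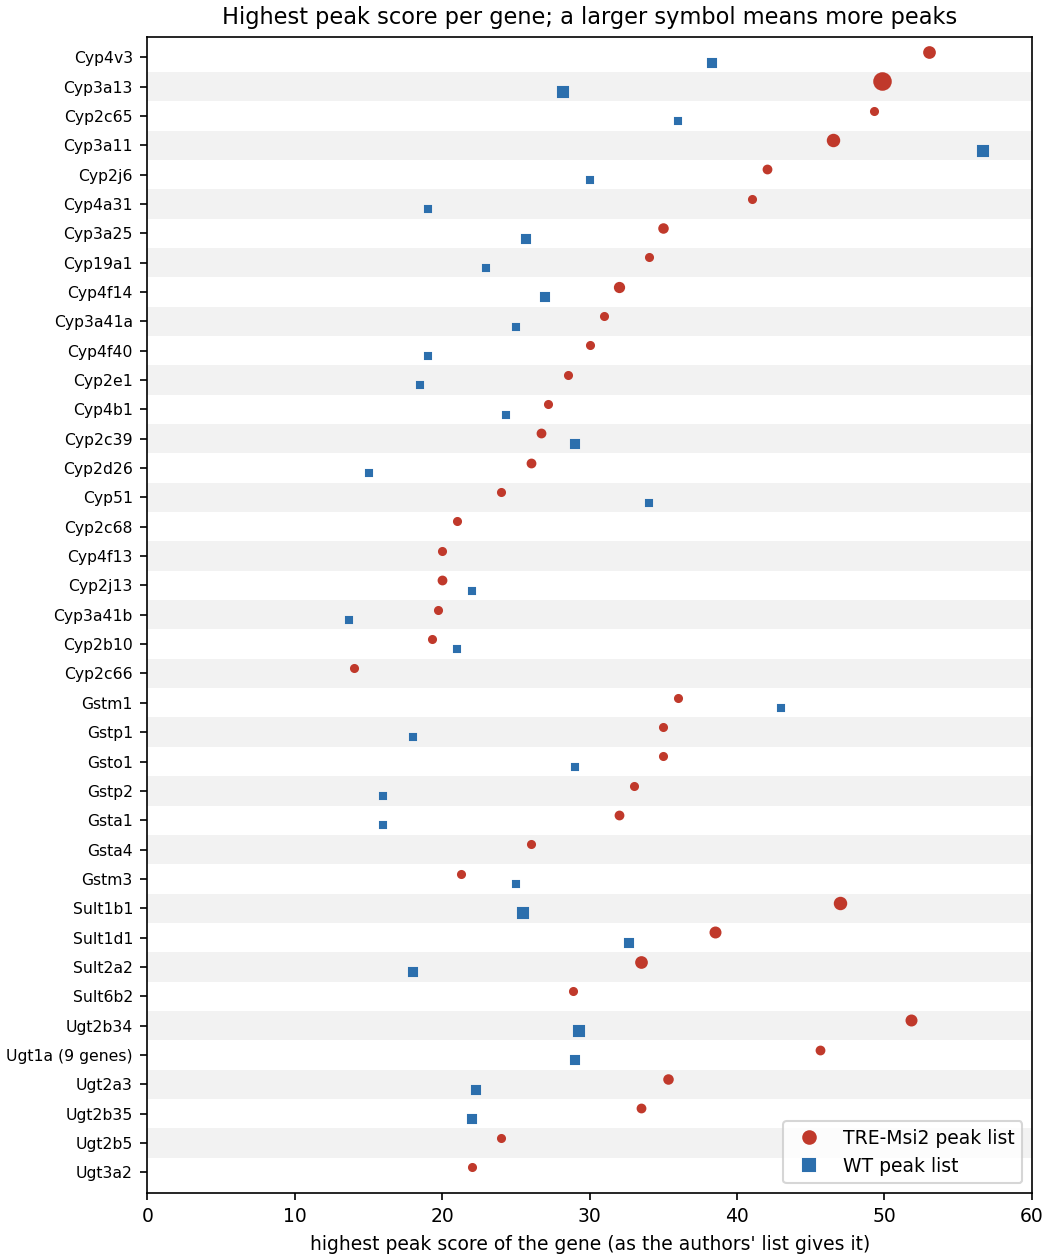
Highest peak score (authors' score, linear axis) of each gene with a peak, in the TRE-Msi2 list (red circles) and the WT list (blue squares), grouped by family; larger symbols mean more peaks and the 9 Ugt1a genes share a row. Scores of the 2 lists rest on different, unknown depths, and scores of joined and single-bin peaks are not on one scale. The highest numbers were 53 in Cyp4v3 (TRE-Msi2, a single bin) and 56.7 in Cyp3a11 (WT, a joined peak).

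Among phase II enzymes, the Ugt1a genes show how shared exons shape the count. Ugt1a genes each have their own first exon and splice into common last exons, so that all 9 spans end together on chromosome 1, between 88218998 and 88220002. Just 2 different peaks accounted for the whole group in each list. The peak at 88218426 to 88219025 lay under all 9 spans and scored 45.6 in the TRE-Msi2 list and 29 in the WT list, so it cannot be given to Ugt1a1, which conjugates bilirubin, or to any other member. The second peak started 225 nt into the Ugt1a7c span and lay under 4 spans, those of Ugt1a7c, Ugt1a8, Ugt1a9 and Ugt1a10. It scored 33 over 600 nt in the TRE-Msi2 list and 23 over 400 nt in the WT list. No peak was found between the starts of Ugt1a6b and Ugt1a1.

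**Figure D3:**
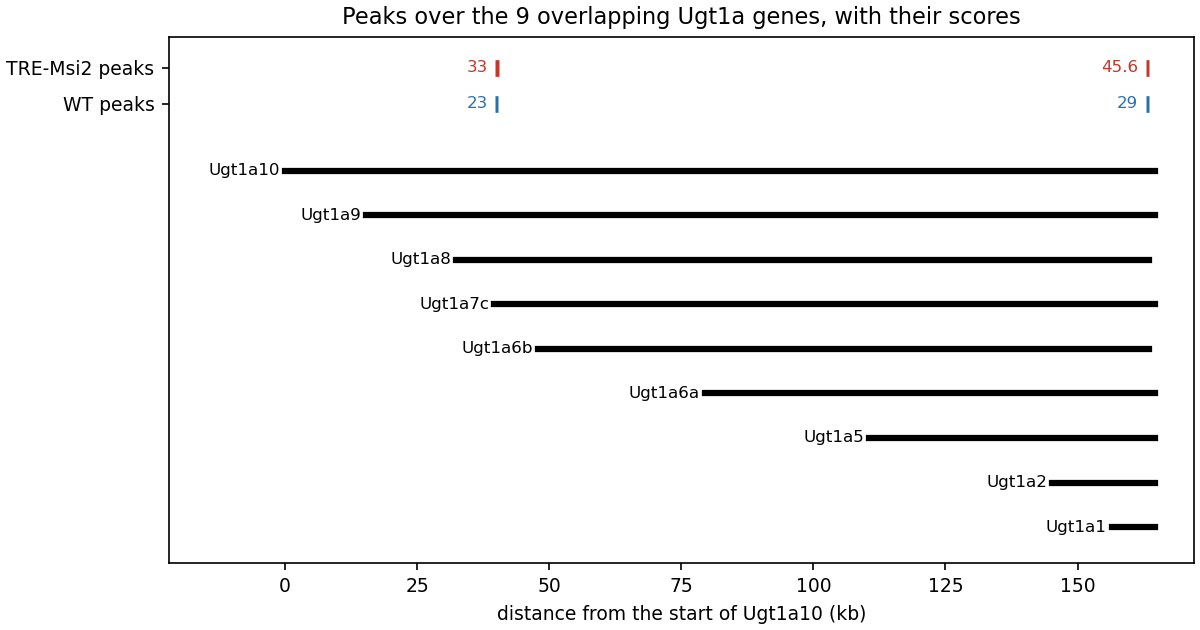
Spans of the 9 Ugt1a genes (black lines) by distance from the start of Ugt1a10 (kb), with the TRE-Msi2 peaks (red) above the WT peaks (blue) and their scores. Each list holds 2 peaks, the right-hand one (45.6 and 29) under every span and the left-hand one (33 and 23) near the start of Ugt1a7c.

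On chromosome 5, 13 Ugt2 and Sult1 genes lie within 702 kb, and 6 of them held a TRE-Msi2 peak and 5 a WT peak. Ugt2b34, at 86889770 to 86906937, held 5 and 4. Its end peak was 1600 nt wide in both lists, with scores of 51.8 (TRE-Msi2) and 28.5 (WT), and the peak in the first 10% of its span scored 42 and 29.3. Ugt2a3, which conjugates bile acids, held 3 and 2 peaks, with 35.3 and 18.7 near its start and 25.4 and 22.3 at its end. Ugt2b35 held 2 peaks in each list, at the same 2 bins. The bin at 87011576 to 87011775 scored 33.5 in the TRE-Msi2 list, a broken score whose strand cannot be read, and 15 on the opposite strand in the WT list. Ugt2b5 had a TRE-Msi2 peak of 24 alone. Ugt2b1 held none in its span, but both lists had a peak 264 nt past its end on its strand (25 and 19), which also touches Gm25211. Ugt2a1, Ugt2a2, Ugt2b36, Ugt2b37 and Ugt2b38 held none. Ugt3a2, on chromosome 15, had a TRE-Msi2 peak of 22 alone, and its strand is not known here.

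Of the sulfotransferases, Sult1b1 and Sult1d1 from the same cluster were the most covered. Sult1b1, which sulfates phenols and thyroid hormones, held 7 TRE-Msi2 and 5 WT peaks, and each of the 5 WT peaks had a TRE-Msi2 counterpart. Its TRE-Msi2 scores ran from 15.7 to 47 and its WT scores from 19 to 25.5. The 47 was at 87533776 to 87534175, 17.0% along the span, not at the end. Sult1d1, a catecholamine sulfotransferase in mouse, held 5 TRE-Msi2 and 2 WT peaks, led by a 1600-nt peak at its end with scores of 38.5 and 32.7. Sult1e1, next to it, held none.

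Sult2a2, of the hydroxysteroid and bile acid sulfotransferases, was the 1 gene of its 8-gene subfamily with peaks, 6 in the TRE-Msi2 list (up to 33.5) and 3 in the WT list (up to 18). These all lay in the middle of the span, from 38.3% to 47.0% along it on the strand of the reads, and the strand of Sult2a2 is not known here. Sult6b2 had a TRE-Msi2 peak of 28.9 that runs over its end and no WT peak in its span. The WT list held a peak of 35.5 under the same TRE-Msi2 peak, 101 nt past the end of the gene, so this difference is made by the edge of the annotation. Both of these also touch the noncoding gene Gm46981.

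Of the glutathione S-transferases 13 of 20 held no peak, and apart from Gsta1 each of those with a peak held 1 in a list. Gstm1 had 36 (25.2 to 49.8) in the TRE-Msi2 list and 43 (31.1 to 57.9) in the WT list, and its neighbour Gstm3 had 21.3 and 25; the other 5 mu-class genes held none. Gsto1 had 35 and 29. Gstp1 and Gstp2, close copies between which reads may be split, had 35 and 33 in the TRE-Msi2 list and 18 and 16 in the WT list, and within each list these pairs did not differ beyond counting error. Gsta1 had 32 and 16 in an inner bin and a further TRE-Msi2 peak of 24 at its end. Gsta4, which conjugates the lipid peroxidation product hydroxynonenal, had a TRE-Msi2 peak of 26 (17.0 to 38.1) alone.

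Between the lists, sharing was nearly complete from the WT side. Of the 57 different WT peaks over these genes, 56 (98.2%, 90.6% to 100%) were overlapped on the same strand by a TRE-Msi2 peak, and the exception was the Ugt2b35 bin whose TRE-Msi2 counterpart has no readable strand. Over all protein-coding genes the share was 91.0%. The 56 include the Cyp2e1 bin, matched by its label although its strand cannot be read in either list. From the other side, 55 of 96 TRE-Msi2 peaks (57.3%, 46.8% to 67.3%) had a WT counterpart, against 58.7% over all protein-coding genes. TRE-Msi2 peaks with a counterpart had a median score of 33 and those without 22, beside 28 and 22 over all protein-coding genes. All of these medians mix joined and single-bin peaks. Of the 7 genes with a TRE-Msi2 peak alone, 5 had a top score below the list median of 24.7 (Cyp2c66, Cyp2c68, Cyp4f13, Ugt2b5 and Ugt3a2).

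Among the 40 genes in both lists, 14 (35.0%) had more TRE-Msi2 than WT peaks, 26 had as many and 0 had fewer, beside 34.3%, 58.2% and 7.43% of all protein-coding genes with peaks in both. The 7 members with 5 or more TRE-Msi2 peaks (Cyp3a13, Cyp3a11, Sult1b1, Cyp4v3, Sult2a2, Ugt2b34 and Sult1d1) held 50 of the 96 TRE-Msi2 peaks (52.1%) and 25 of the 57 WT peaks (43.9%). They were picked by their number of TRE-Msi2 peaks, so an excess in that list is built in. In 30 of the 40 the highest peaks of the lists overlapped, the 9 Ugt1a genes counted with their shared peak. The same share over all protein-coding genes was not computed, and the highest peak was picked across joined and single-bin scores. Whether 30 of 40 is high or low therefore cannot be said.

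**Figure D4:**
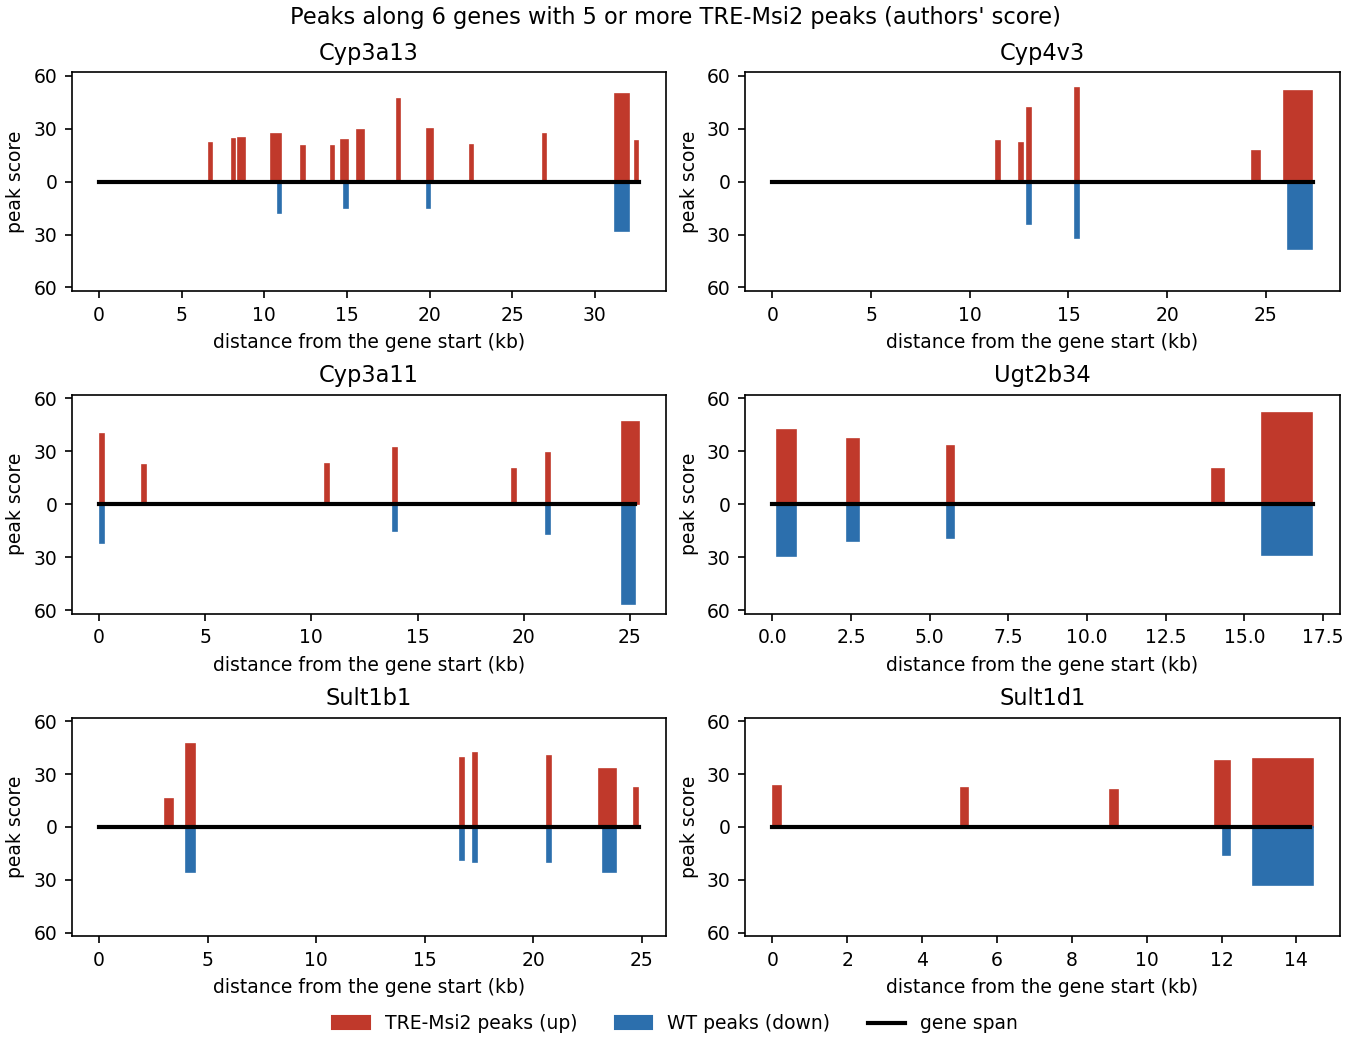
Peaks along 6 of the 7 genes with 5 or more TRE-Msi2 peaks, by distance from the gene start (kb) in the direction of transcription; Sult2a2 is left out because its strand is not known here. Bars give position, width and authors' score of TRE-Msi2 peaks upward in red and WT peaks downward in blue. In all 6 the widest peak lies at or near the gene end, and Cyp3a13 has 14 TRE-Msi2 and 4 WT peaks.

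By strand, 81 of 85 TRE-Msi2 peaks (95.3%, 88.4% to 98.7%) and 47 of 51 WT peaks (92.2%, 81.1% to 97.8%) in genes of known strand lay on the transcribed strand, beside 86.1% and 83.9% over all protein-coding genes. Bins with a broken score, in Cyp2e1 and Ugt2b35, are counted there by their labels although their strand cannot be read. Counting single bins with a whole score alone, whose labels show no such excess of plus, the shares were 97.9% and 90.9%. The exceptions were the peaks in Cyp2c39 and Cyp2j13 and the WT bin in Ugt2b35. Many peaks come from the same gene, with 14 TRE-Msi2 peaks in Cyp3a13. The intervals for shares of peaks treat peaks as independent and are therefore too narrow. The last 10% of the span, taken along each peak's own strand, held 34 of 94 TRE-Msi2 peaks (36.2%, 26.5% to 46.7%) and 27 of 55 WT peaks (49.1%, 35.4% to 62.9%), close to the 43.2% and 47.9% of all protein-coding genes. By gene, 29 of the 32 members with a TRE-Msi2 peak on their strand (90.6%, 75.0% to 98.0%) and 23 of 27 with a WT peak (85.2%, 66.3% to 95.8%) held a peak within 1 kb of the gene end, beside 64.4% and 63.1% of all such genes. These counts leave out peaks that lie over several protein-coding genes, such as those of Ugt1a, and include Cyp2e1 by the label of its peaks. The exceptions in the TRE-Msi2 list were Cyp2j6, Cyp51 and Cyp4f13, and in the WT list Cyp2j6, Cyp51, Gsta1 and Sult1b1. A fixed distance of 1 kb is a larger part of a short span. Members with a peak in either list spanned a median of 24.9 kb, and all protein-coding genes with one 30.1 kb. The part of span length in the gene-end shares was not tested. Gene spans include introns, which were not annotated here.

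**Figure D5:**
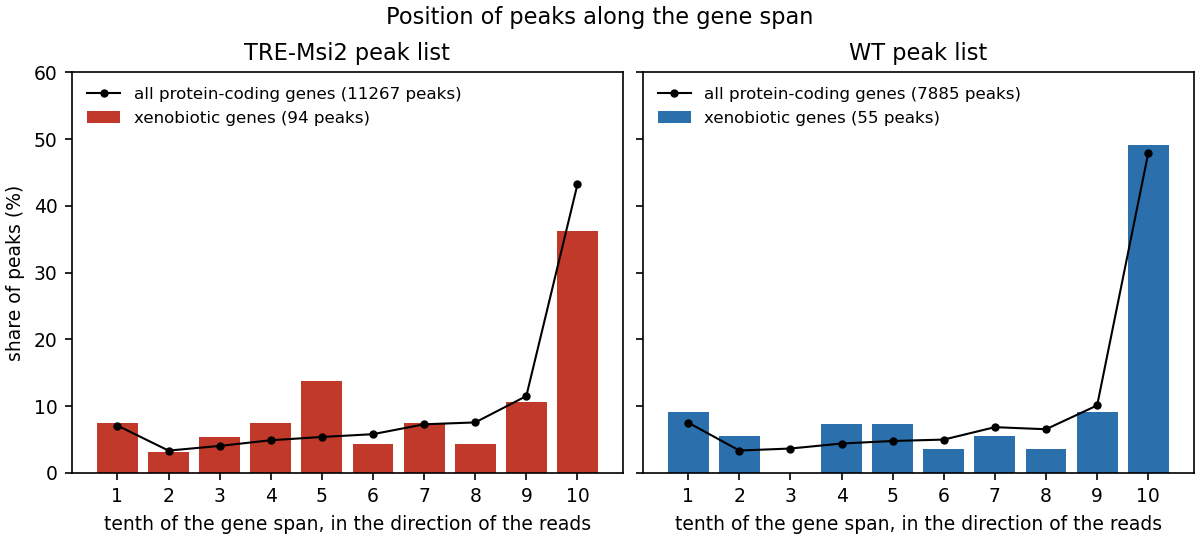
Share of peaks (%) in each 10% of the gene span, from the start (bin 1) to the end (bin 10), for the xenobiotic genes (bars) and all protein-coding genes (black line), in the TRE-Msi2 list (left) and the WT list (right). The last bin holds 36.2% of 94 TRE-Msi2 and 49.1% of 55 WT peaks of these genes; the second highest TRE-Msi2 bar, 13.8% in bin 5, rests on 13 peaks.

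Peaks over the partners of these enzymes were also counted. Of 80 genes in 6 lists of partners, 44 (55.0%) held a TRE-Msi2 peak and 41 (51.2%) a WT peak, where all protein-coding genes gave 24.9% and 20.3%. These lists hold many genes known to be active in gut, unlike the symbol rule that chose the 161. The lists were also drawn up with earlier results of these data known, so the higher shares are no result about partners as a class. Genes for cosubstrate supply gave 8 of 10 in both lists. Among these were Papss2, which makes the sulfate donor (51.2 TRE-Msi2, 30.7 WT), Ugdh, which makes UDP-glucuronic acid (47 and 31.6), and Gclm and Gclc of glutathione synthesis (42 and 28, 30 and 19); Ugp2, which makes UDP-glucose, had 33.7 and 41.5. Papss1, Gsr and Mat2a held 1 peak in each list. Among 25 other phase I enzymes, 17 and 16 held peaks, with the aldehyde dehydrogenase Aldh3a2 at 64 and 36.5, the monoamine oxidase Maoa at 55 and 37, the carbonyl reductase Cbr1 at 55 and 39, Aldh1a1 at 53.8 and 38.7 and Akr1c13 at 50 and 30. The others were Ces1f, Ces2c, Ces2e, Fmo1, Fmo5, Adh1, Adh5, Aldh1b1, Ephx2, Xdh and Maob in both lists and Ces2a, with 22, in the TRE-Msi2 list alone.

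Other conjugating enzymes gave 5 (TRE-Msi2) and 3 (WT) of 12. The microsomal Mgst1 had 24.8 and 32. Mgst2 (26), Nat2 (22) and an antisense peak over Tpmt (24) were found in the TRE-Msi2 list alone, and Mgst3 (15) in the WT list alone. Of 11 transporters 5 held peaks in both lists: the peptide carrier Slc15a1 (48 and 20), Abcg2 (36 and 17), Abcb1a (32 and 13.8), Abcc2 (29 and 25) and Abcc4, whose peaks lay on the opposite strand. Abcb1a, the P-glycoprotein efflux pump, held 7 TRE-Msi2 peaks and 1 WT peak. Of 14 receptors and regulators 6 and 5 did. They were led by Nfe2l2, the oxidative stress regulator NRF2, with 54 and 30, Vdr with 40 and 23, Hnf4a with 33.4 and 25.4, and Nr1i2, the pregnane X receptor that induces Cyp3a genes, with 33 and 15. Ahr (23) and Arnt (26), which form the dioxin receptor, had a TRE-Msi2 peak alone, and Nr1h4 (18) a WT peak alone. Of 8 electron donor and heme genes 3 and 4 held peaks, namely Cyb5a (36 and 38), Cyb5b (34.2 and 24.8), Cyb5r3 (24.6 and 38) and, in the WT list alone, Fdx1 (19); Por, the reductase that feeds all microsomal P450s, held none.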

How the data were processed

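MSI2 CLIP-seq peaks of 2 TRE-Msi2 and 2 WT libraries were analysed. Per the labels' protocols, crosslinking used 265 nm light, in 2 pulses of 400 mJ/cm2, and RNA was taken from a band near 50 kD. The submitters' processing notes name cutadapt, TopHat, mm9 and mm10; per the file names the authors called peaks with Piranha on merged, duplicate-free reads, with settings not given in the sources used here. Each deposited peak carries a score and a p-value joined in a cell; the per-peak scores are the authors' own, and the p-value of joined bins was not used. Coordinates fit mm10.

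Peaks were assigned to RefSeq GRCm38.p6 gene spans by an overlap of 1 base, and between lists by 1 base on the same strand (Python 3.11.15, pandas 2.3.3; tested on simulated peaks). Gene strand came from the RefSeq promoter table, which held 131 of the 161 genes. Intervals are exact Clopper-Pearson and Poisson at 95% and cover counting error only. No test was run, since each genotype has 1 pooled list. Every gene with a peak is named, with more values for high scores, for genes in 1 list and for divided subfamilies; from the partner lists, the highest scores are named. The genes and lists were chosen with earlier results of these data known. The values of 1 gene of the partner lists are not reported here.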

Additional observations from a re-analysis of the deposited data

How the results depend on the processing

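The counts of genes and shares of peaks were recomputed in 56 combinations of result and setting, of which 47 stayed within 1.5 times the reported count or inside the interval of the reported share. Within these, genes with a TRE-Msi2 peak ran from 36 to 47, with a WT peak from 30 to 41 and with both from 29 to 41; the lowest were 36 and 30 with peaks over 1 gene span only, and 29 with scores at or above each list's median. With peaks of a single bin alone, 29 genes held a TRE-Msi2 peak, 26 a WT peak and 22 both, since many end peaks are joined bins, and 4 genes (Cyp2b10, Cyp2c39, Gstm3 and Gsto1) then had a WT peak alone. Genes with a WT peak alone also numbered 4 with the TRE-Msi2 list cut by score to the WT length, and 4 with scores at or above each list's median, instead of 0. The cut to the WT length left 4 genes with a TRE-Msi2 peak alone, Gsta4, Sult6b2, Ugt2b5 and Ugt3a2, instead of 7. The share of WT peaks with a TRE-Msi2 counterpart was 100% with strand ignored and 83.8% with scores at or above the medians. Chosen after seeing the data, spans extended by 1 kb, with peaks antisense to the gene left out, gave 47 and 41 genes. This setting added Gsto2 and Ugt2b1 in both lists and Sult6b2 in the WT list. It also dropped Cyp2c39 and Cyp2j13, whose peaks were all antisense, so the near-equal totals hide changes in both directions. Ugt1a as 1 locus, also chosen after seeing the data, gave 39 and 32. No paired analysis was possible because each deposited list pools the libraries of a genotype, and for the same reason no library could be left out.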

Other observations

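Within 1 kb outside the spans, a peak on the gene's strand was found for 3 members of known strand. These are Ugt2b1 and Sult6b2, given above, and Gsto2, whose start lies 528 nt past the TRE-Msi2 end peak and 728 nt past the WT end peak of its neighbour Gsto1. Peaks near Cyp2w1, Cyp51 and Sult1a1 lay on the other strand and touched 3110082I17Rik, Akap9 and Slx1b. The Sult1a1 case, 44 nt from the gene, scored 37 in the TRE-Msi2 list and 20 in the WT list.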
